A study of Mus musculus with 2 samples.

Results

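NF-κB is a family of dimeric transcription factors, and the genes that encode its subunits and its inhibitors were examined here in the chromatin immunoprecipitation sequencing (ChIP-seq) data of a mouse T-cell lymphoma. The set held 10 genes of the 21887 protein-coding genes on the autosomes, X and Y in the RefSeq annotation. There were 5 subunit genes (Nfkb1, Nfkb2, Rel, Rela and Relb) and 5 inhibitor genes (Nfkbia, Nfkbib, Nfkbie, Bcl3 and Tnfaip3). They were chosen by their roles in the pathway, and measured values were not part of the rule. Earlier results of these data were, however, known at the time of the choice. Each gene was examined for Myc-Tag intervals, the regions called as peaks, that reached, by 1 bp or more, into the gene or its flanks of 10 kb.

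The lymphoma arose in Lck-Dlx5 mice, in which the Lck promoter directs a Myc-tagged Dlx5 homeoprotein to developing T cells. The series held 2 libraries of this tumor type, a Myc-Tag ChIP of the tagged Dlx5 and an input of chromatin, with 1 library in each group. Both libraries carried the transgene, so no Dlx5-negative cells were compared, and no value below has a replicate check. The labels give a primary tumor of strain C57BL/6 (written C57BL/7 for the input), whereas the methods of the study describe a lymphoma cell line and an IgG control. The age of the mice was not used here. In all, 3477 intervals came from the Myc-Tag ChIP and 28 from the input, each of which was also a Myc-Tag interval. Each interval had a summit, the position of its highest signal, and a summit height, a whole-number score without a stated normalization. The median height over the library was 16, with quartiles of 13 and 19. Sequencing depth was not analysed here, and weak binding that did not pass the caller was not detectable.

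In resting cells, IκB proteins hold NF-κB dimers in the cytoplasm. Signals from antigen receptors, TNF receptors and Toll-like receptors activate the IκB kinase complex, which marks the IκB proteins for destruction and releases the dimers to the nucleus. Several inhibitors, among them IκBα and A20, are themselves switched on by NF-κB and form negative feedback loops, and the pathway is used in thymocyte survival and in T-cell activation.

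The Myc-Tag intervals at the start of an NF-κB gene lay at Nfkbia, which encodes IκBα, and at Tnfaip3, which encodes the deubiquitinase A20. The bases before the start of these genes are printed because each interval covers them, and those of the subunit genes Rel and Nfkb2 are printed because they carry the same kind of site without an interval. Each sequence is the 250 bases before the annotated start, read 5′ to 3′ on the strand of the gene, from RefSeq on GRCm38.p6, the assembly known as mm10. Capitals mark matches to the NF-κB consensus on either strand. The Nfkbia sequence lies at chr12:55492648-55492897 and the Tnfaip3 sequence at chr10:19015411-19015660, both on the minus strand. The Rel sequence lies at chr11:23770970-23771219 on the minus strand and the Nfkb2 sequence, of the first of its 3 annotated starts, at chr19:46304487-46304736 on the plus strand.
Nfkbia: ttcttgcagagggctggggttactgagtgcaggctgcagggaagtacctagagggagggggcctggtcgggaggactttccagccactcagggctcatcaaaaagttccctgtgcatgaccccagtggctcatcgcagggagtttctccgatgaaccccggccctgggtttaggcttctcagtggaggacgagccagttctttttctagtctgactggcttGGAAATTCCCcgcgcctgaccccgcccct
Tnfaip3: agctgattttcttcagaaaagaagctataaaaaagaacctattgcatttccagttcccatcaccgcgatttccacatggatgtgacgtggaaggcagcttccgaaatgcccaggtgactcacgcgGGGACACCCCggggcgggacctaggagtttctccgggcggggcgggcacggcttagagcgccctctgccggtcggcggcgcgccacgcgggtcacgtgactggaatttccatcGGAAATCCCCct
Rel: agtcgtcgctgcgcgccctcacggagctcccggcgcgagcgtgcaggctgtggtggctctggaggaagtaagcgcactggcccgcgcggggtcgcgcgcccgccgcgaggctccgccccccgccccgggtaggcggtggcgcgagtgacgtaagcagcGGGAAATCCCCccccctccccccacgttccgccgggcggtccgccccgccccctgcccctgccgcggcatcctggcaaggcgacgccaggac
Nfkb2: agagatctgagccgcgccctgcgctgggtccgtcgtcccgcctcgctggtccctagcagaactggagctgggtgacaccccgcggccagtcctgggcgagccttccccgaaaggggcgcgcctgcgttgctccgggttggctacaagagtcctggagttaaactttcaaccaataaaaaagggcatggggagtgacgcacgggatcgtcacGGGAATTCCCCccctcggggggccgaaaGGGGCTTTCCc

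A Myc-Tag interval was present at 3 of the 10 genes (30.0%), against 19.0% of all protein-coding genes under the same rule (4168 of 21887). The 3 were all inhibitor genes. None of the 5 subunit genes had an interval, and 3 of the 5 inhibitor genes (60.0%) had 1 each. The input had no interval at any of the 10 genes. Their summit heights were 12 at Nfkbia, 17 at Tnfaip3 and 19 at Nfkbie. The Nfkbia summit was below the lower quartile of the library, and the other 2 lay above its median and no higher than its upper quartile. With 10 genes and no replicates, the difference between subunits and inhibitors was not tested.

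**Figure D1:**
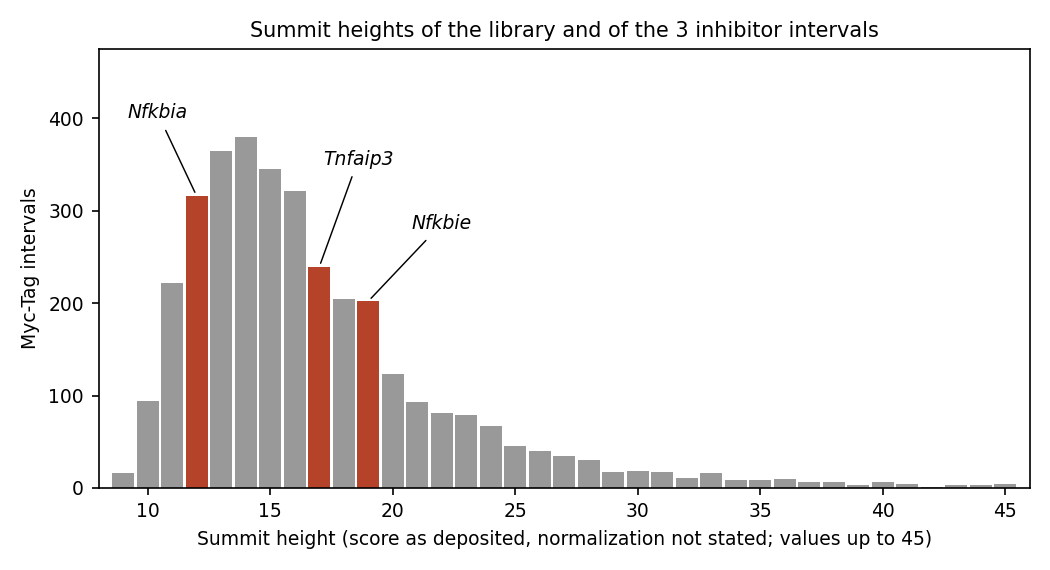
Histogram of summit heights in the Myc-Tag library (x axis, the deposited score up to 45) against the number of intervals (y axis). Red bars mark the heights of the 3 inhibitor intervals, Nfkbia at 12, Tnfaip3 at 17 and Nfkbie at 19, around the library median of 16.

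Nfkbia, on the minus strand of chromosome 12 from 55489409 to 55492647 in mm10, is a short gene of 3.24 kb. Its interval ran from 55492101 to 55492918 and was 818 bp wide. The summit, at 55492512, lay 135 bp inside the gene from the annotated start, and the interval reached from 271 bp before the start to 546 bp after it. The height of 12 was in the lower part of the library, as 2829 of the 3477 summits (81.4%) were taller and 332 were lower. Nfkbia was the gene that the interval overlapped, and no other protein-coding gene lay within 10 kb. The long noncoding RNA gene Gm36634 starts on the opposite strand, 648 bp from the Nfkbia start and 783 bp from the summit, and the interval did not reach it. A taller interval, with a height of 33, had its summit at 55446912, which is 42.5 kb from the gene body. It overlapped no annotated gene, and its nearest protein-coding gene was Psma6, a proteasome subunit gene, at 28453 bp.

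Tnfaip3 lies on the minus strand of chromosome 10 from 19000910 to 19015410. A20 removes and edits ubiquitin chains on signaling proteins and so limits the activation of the IκB kinase complex. Its interval ran from 19015125 to 19015837, with a width of 713 bp, and its summit at 19015488 lay 78 bp before the upstream one of 2 annotated starts. The interval reached from 427 bp before this start to 285 bp after it, and the other start, at 19011963, was not covered. The height of 17 was slightly above the median, with 1179 summits (33.9%) taller and 2059 lower. Tnfaip3 was the gene that this interval overlapped. A further interval, with a height of 14 and a summit at 19062736, lay 47.3 kb from the gene body and overlapped the noncoding gene Gm51814. Tnfaip3 was also the protein-coding gene nearest to that summit.

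Nfkbie, which encodes IκBε, an inhibitor that binds dimers holding RelA or c-Rel, differed from these 2 genes in where its interval lay. The gene runs on the plus strand of chromosome 17 from 45555700 to 45563169. The interval, from 45572342 to 45574303, began 9173 bp beyond the 3′ end of the gene, and its summit at 45573888 was 10719 bp beyond it and 18188 bp from the start. Only 828 bp of its 1962 bp (42.2%) lay inside the 10 kb examined. The interval overlapped Hsp90ab1, which encodes the cytosolic chaperone HSP90β, and the noncoding gene Gm35399. Hsp90ab1 was the nearest protein-coding gene, at 627 bp from the summit, and the start of Gm35399 was 573 bp away. At 1962 bp the interval was among the widest of the library, with 31 intervals (0.892%) wider. Its height of 19 was exceeded by 773 summits (22.2%). The interval was thus counted at Nfkbie by distance alone, and 3 protein-coding genes lay within 10 kb of Nfkbie.

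A stricter view of position gave the same 2 genes. A summit within 1 kb of an annotated start was found at Nfkbia and Tnfaip3, 2 of the 8 genes with a start in the promoter table, against 11.4% of all protein-coding genes with such an entry (n = 17492). Nfkb1 and Relb are not among the 8. The same 2 were the members that were the nearest protein-coding gene to a summit within 10 kb, against 13.2% of all protein-coding genes (2896 of 21887). In the library as a whole, 1907 summits (54.8%) lay within 1 kb of an annotated start, with a median height of 15, so that the heights of 12 and 17 lie on either side of it.

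**Figure D2:**
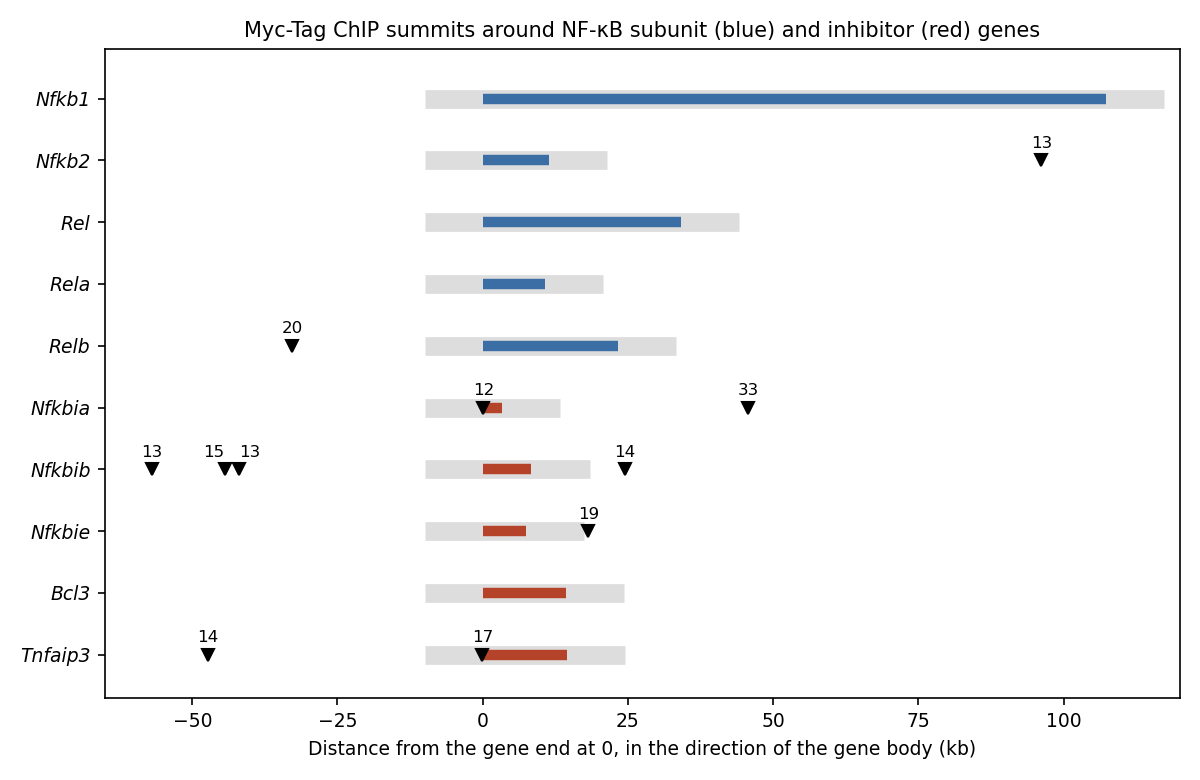
Summits of Myc-Tag intervals (black triangles, with their heights) around the 5 subunit genes (blue) and the 5 inhibitor genes (red). Distance in kb runs from the 5′ end of each gene body, which for Nfkb2, Rela and Bcl3 is not an annotated start. For Nfkb1 and Relb it runs from the end with the lower coordinate. Gray marks the 10 kb on either side of each gene body. Summits lie at the left end of the Nfkbia and Tnfaip3 bodies, the Nfkbie summit lies just outside the gray zone, and the zones of the 5 subunit genes hold none.

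The closest summit to any of the subunit genes was 32.8 kb away, at Relb. Rel and Rela encode subunits with a transactivation domain, as does Relb, whereas Nfkb1 and Nfkb2 encode the precursors p105 and p100, which are processed to p50 and p52. The Relb summit had a height of 20 and was 113 bp from Gemin7, a gene of the SMN complex. For Rela the nearest summit was 69.2 kb away with a height of 17, in Ap5b1. For Nfkb2 it was 84.8 kb away with a height of 13, in Sufu, a regulator of Hedgehog signaling. For Nfkb1 it was 146 kb away with a height of 27, in Ube2d3, which encodes a ubiquitin-conjugating enzyme. The Rel locus was the most isolated, with its nearest summit 746287 bp away, a height of 20 and Cct4, a chaperonin gene, at 33 bp. Each of these summits lay in or close to another gene. The median gene length was 23.2 kb for the subunit genes and 8.39 kb for the inhibitor genes, and the part of gene length in the counts was not tested. Nfkb1 was the longest of the 10 at 107 kb.

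Of the inhibitor genes, Nfkbib and Bcl3 had no interval. Nfkbib encodes IκBβ. The nearest summit was 16.1 kb from its body, with a height of 14, inside the seryl-tRNA synthetase gene Sars2, and the starts of Sars2 and Mrps12 were 144 bp and 291 bp from it. At 41.9 and 44.4 kb from Nfkbib lay summits with heights of 13 and 15, both at Hnrnpl. Bcl3 encodes a nuclear IκB protein that binds p50 and p52 dimers on DNA. Its nearest summit was 134 kb away, had a height of 15 and lay 2986 bp from Igsf23. The edge of the 10 kb rule therefore fell between Nfkbie, whose interval began 9173 bp away, and Nfkbib, whose nearest summit was 16139 bp away. Of the 10 genes, none lies on chromosome 15, where a larger share of protein-coding genes had an interval than in the rest of the genome (285 of 776 protein-coding genes, 36.7%, against 3883 of 21111, 18.4%). The study names trisomy 15 as the recurring karyotype change of Lck-Dlx5 lymphomas, and its part in this share was not tested.

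Most of the promoters examined held a sequence that the choice of genes did not use. In windows of 300 bases, from 250 before to 50 after the start, the NF-κB consensus was searched on both strands. It was present in at least 1 window of 6 of the 8 genes with an entry, namely Nfkb2, Rel, Nfkbia, Nfkbie, Bcl3 and Tnfaip3, and in 8 of the 11 windows of the 8 genes. By role, these were 2 of 3 subunit genes and 4 of 5 inhibitor genes. Over all 32851 promoter windows the share was 4.51%. Neither Rela nor Nfkbib had a match. In the windows that overlapped a Myc-Tag interval the share was 4.87% (116 of 2383), against 4.48% (1364 of 30468) in the others. A match describes the letters in the window and is not evidence of a bound factor.

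With the start base counted as 0, the Nfkbia window held GGAAATTCCC with its first base at -29. The Tnfaip3 window held GGGACACCCC at -125 and GGAAATCCCC at -12. Both windows were entirely inside their intervals, but those intervals were 818 bp and 713 bp wide, and their parts outside the windows were not searched. The Nfkbia summit, 135 bp after the start, lay outside its window. The Rel window held the overlapping matches GGGAAATCCC at -92 and GGAAATCCCC at -91, so the same 10 bases GGAAATCCCC occurred at Tnfaip3, with an interval, and at Rel, without one. The first Nfkb2 window held GGGAATTCCC at -39, GGAATTCCCC at -38 and GGGGCTTTCC at -11. Another match, GGGACTTTCC, fell in the windows of both other Nfkb2 starts, which overlap. The window of the Nfkb2 start at 46305695 also held GGAATGTCCC at -236. Bcl3 had GGGAAGTCCC at 2 and Nfkbie had GGGGGATTCC at -106. Matches were thus found at genes with and without an interval.

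**Figure D3:**
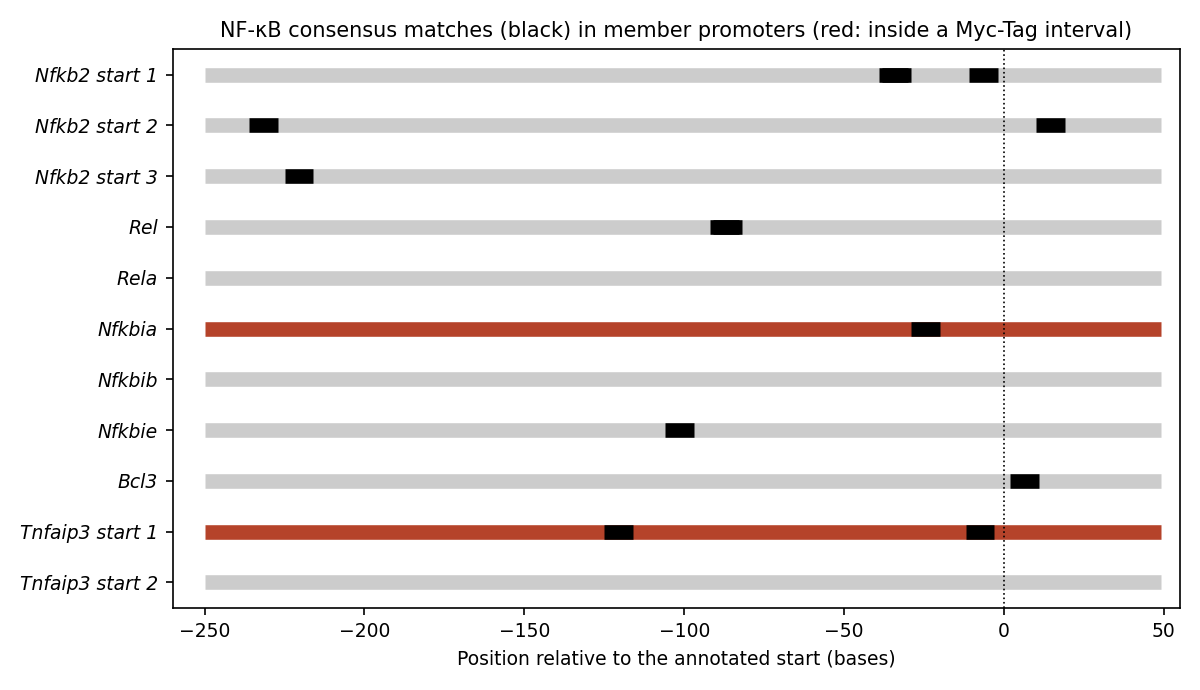
Promoter windows of the 8 genes with an entry, in bases from the annotated start, with 1 bar for each start. Black marks matches to the NF-κB consensus, and red bars are windows inside a Myc-Tag interval. Matches stand in 8 of 11 windows, and the red windows are those of Nfkbia and the first Tnfaip3 start.

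TAATT, the core that homeodomain proteins of the Dlx family are known to recognize, was searched on both strands of the same windows and overlapped no NF-κB match in them. It was absent from the windows of Nfkbia and Tnfaip3 and present in 1 of the 8 genes, Nfkbie, whose start was 18188 bp from the summit counted at that gene. The parts of the Nfkbia and Tnfaip3 intervals outside the windows were not searched. TAATT was present in 27.0% of all windows, in 14.1% of those that overlapped a Myc-Tag interval and in 28.0% of the others. The windows with an interval were also richer in CG dinucleotides, with a median of 25 against 6 in the windows without. The Nfkbia window had 15 CG dinucleotides and the first Tnfaip3 window 22, below that median, while the Rel window had 42 and the Rela window 31. Absence of these letters from a window says nothing of Dlx5 binding there.

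The other genes of the pathway were examined with the same rule. An interval was present at 12 of 69 (17.4%), close to the 19.0% of all protein-coding genes, with 14 intervals and a median height of 16. Of these 69 genes, 5 lie on chromosome 15, and 4 of the 5 had an interval. The part of trisomy 15 in this count was not tested. Elsewhere 8 of 64 (12.5%) had one. A summit within 1 kb of an annotated start was found for 3 of the 54 genes with an entry, below the 11.4% of all protein-coding genes with one.

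Among 9 genes of the IκB kinase complex and its activators, 2 had an interval. Map3k7, which encodes the kinase TAK1 that activates the complex, had a height of 16 with the summit 299 bp before a start. Tab1, a partner of TAK1 on chromosome 15, had a height of 24 with the summit 7 bp outside the gene body. The subunit genes of the complex itself, Chuk, Ikbkb and Ikbkg, had none. Among 17 adaptors and ubiquitin ligases, 3 had an interval. Traf1, a TNF receptor adaptor, had a height of 17 at 1996 bp from the gene. Tradd, the adaptor of TNF receptor 1, had an interval with a height of 15 inside the gene and another with a height of 21 in the neighboring gene B3gnt9. Sharpin, a component of the linear ubiquitin ligase on chromosome 15, had a height of 26 in an interval that also overlapped Maf1, and this interval was the 1 pathway interval also called in the input. Of 6 deubiquitinases and A20-binding proteins, Otulin had an interval. This gene on chromosome 15 encodes the enzyme that removes linear ubiquitin chains, and the summit, with a height of 22, lay 37 bp after its start.

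At the receptor and ligand genes with an interval, no summit lay within 1 kb of an annotated start of that gene. Among 13 receptor genes, 3 had an interval. Tnfrsf1b, which encodes TNF receptor 2, had a height of 11 at 7722 bp before its start. Tnfrsf9, which encodes the T-cell costimulatory receptor 4-1BB, had an interval with a height of 13 inside the gene and another with a height of 16 at 5659 bp before its start. Tnfrsf13c, the BAFF receptor gene on chromosome 15, had a height of 14, in Shisa8. Among 9 ligand genes, Il1a had an interval with a height of 14, which overlapped Ckap2l and lay 2201 bp from Il1a. Among 13 target genes, 2 had an interval. Sod2, which encodes mitochondrial superoxide dismutase, had a height of 24 with the summit 97 bp after its start. Il2ra, which encodes the α chain of the IL-2 receptor, had a height of 16 at 6653 bp before its start. The other nuclear IκB genes, Nfkbiz and Nfkbid, had none. Of the pathway genes with a start in the promoter table, Otulin, Sod2 and Map3k7 had a summit within 1 kb of it, while Tab1, Tradd and Sharpin have no start in the table to measure from.

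**Figure D4:**
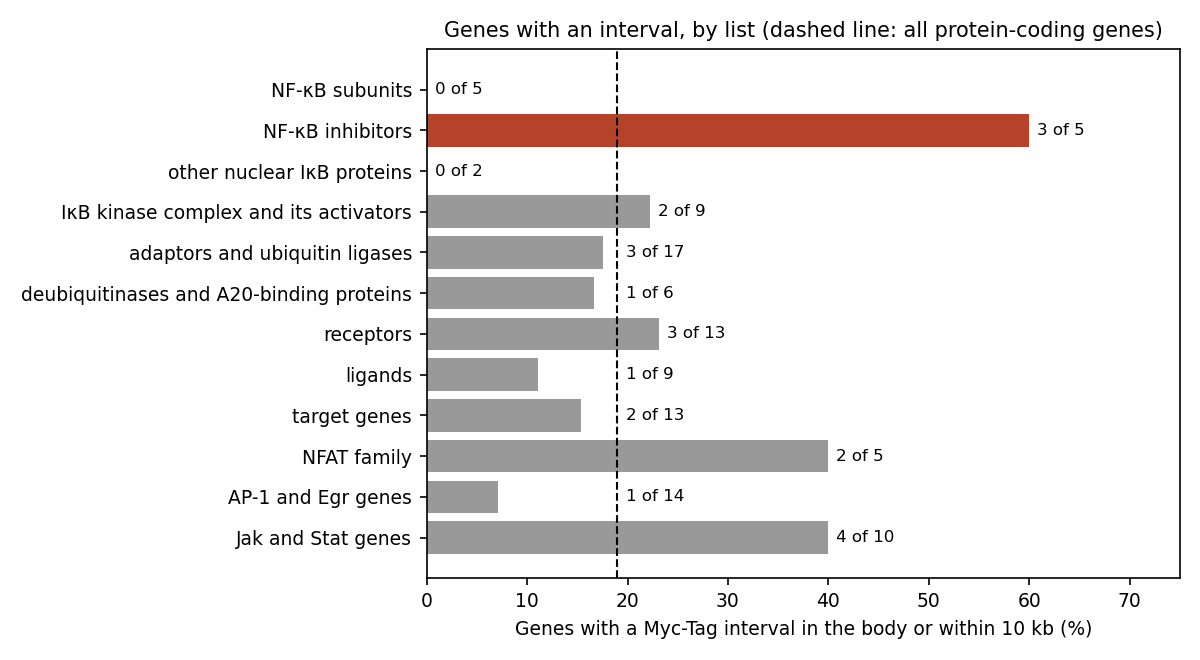
Percent of genes with a Myc-Tag interval in the body or within 10 kb (x axis) for each list (y axis), with the number of genes beside each bar. The dashed line is the 19.0% of all protein-coding genes, and the inhibitors stand at 60.0% (3 of 5), the NFAT and the Jak and Stat genes at 40.0% and the subunits at 0 of 5.

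Other gene families that act downstream of T-cell receptors and cytokine receptors were set beside the NF-κB genes as a description. The NFAT family had an interval at 2 of 5 genes (40.0%), Nfatc3 with heights of 11 and 14 and Nfatc4 with a height of 11. The AP-1 and Egr genes had 1 of 14 (7.14%), Fosl2 with a height of 13 at 664 bp before its start. Among 10 Jak and Stat genes, which carry signals from cytokine receptors, 4 (40.0%) had an interval, namely Jak1, Jak3, Stat4 and Stat5b, with 7 intervals and heights from 9 to 22. The NFAT family and the Jak and Stat genes thus stood above the 19.0% of all protein-coding genes, as the NF-κB inhibitors did. Their median lengths were 86.1 kb for NFAT and 40.1 kb for Jak and Stat genes, against 6.36 kb for AP-1 and Egr genes. With lists of at most 14 genes and no replicates, the differences between families were not tested.

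Peaks do not measure expression, so the labelled cell type could not be checked against marker levels. Among T-cell markers, 6 of 10 genes had an interval (Cd3d, Cd3g, Cd4, Cd8b1, Lck and Ptcra), against 19.0% of all protein-coding genes. The summit counted at Cd4 lay inside P3h3, 7461 bp from Cd4, and that counted at Ptcra lay inside Cnpy3, 3599 bp from Ptcra. The neighboring genes Cd3d and Cd3g share their intervals. The Lck summit lay 220 bp before a start of Lck, whose promoter also drives the transgene. The part of the transgene in that interval was not tested. Among 4 B-cell markers, 2 had an interval (Cd79a and Pax5), with the Cd79a summits outside the gene, and of 4 myeloid markers none had one.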

How the data were processed

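The ChIP-seq was run by Active Motif on an Illumina GA II with MACS p-values for peak calling. The submitters' processing notes name BWA and the build mm9. Coordinates were read as mm10, because the study's browser views carry that name with intervals at the deposited positions, and because 58.4% of summits lay within 1 kb of an end of a coding gene in GRCm38 (47.0 to 70.7% by autosome). The authors deposited summits with a whole-number score (the height, normalization not stated), intervals, and active regions equal to the 3477 Myc-Tag intervals. Summit positions are coarse, as 3329 lay on a multiple of 16 bp. Read totals were not analysed here.

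Genes were taken from RefSeq (GRCm38.p6). All 10 symbols matched. Promoter windows of 8 of them were used, and none on chromosome 18. A gene had an interval when at least 1 bp overlapped the body or 10 kb on either side. With 1 library per group no test was made, and counts are set beside the percent of all protein-coding genes. The members and lists were chosen with earlier results of these data known. All 10 members are named, as are the genes overlapping or nearest to their intervals and, in each pathway and comparison list, every gene with an interval (5 at most in a list). The markers with an interval were named after their values were seen. In 2 lists 1 gene is not reported here, and the counts are without it. Python 3.11.15, numpy 2.4.6 and pandas 2.3.3 were used, with matplotlib 3.10.9 for plots. The overlap script was tested on simulated data. Alternatives were other distances, thresholds on height, a minimum overlap of 50% of the interval, removal of input intervals, and all RefSeq genes. Leaving out chromosome 15 was chosen after seeing the data.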

Additional observations from a re-analysis of the deposited data

How the results depend on the processing

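The count of 3 members held when intervals called in the input were removed, and it changed to between 1 and 5 under the other distances, heights and overlap. With 1 kb around genes, Nfkbia and Tnfaip3 kept an interval, the median height was 14.5, 7 other pathway genes had an interval and so did 14.2% of coding genes. With 50 kb, Relb and Nfkbib joined, giving 5 members with 9 intervals and a median height of 15, 1 subunit gene, 29 other pathway genes and 33.3% of coding genes. At heights of 16 or more, Nfkbie and Tnfaip3 kept an interval, 9 other pathway genes had one and the background was 10.7%. At 19 or more, 1 member with 1 interval was left, the inhibitor gene Nfkbie, with 5 other pathway genes and 6.05% of coding genes. With 50% of the interval required inside the region, Nfkbie lost its interval. That left 2 of the 10 members, Nfkbia and Tnfaip3. The background of 19% of coding genes is the share under the 1 bp rule, so it is not a like comparison. Over all RefSeq genes the background was 11.7%, and without chromosome 15 it was 18.4%, with 8 other pathway genes. Wider or stricter settings admit more or fewer peaks by construction, and for other shifts the cause was not tested for any gene. No paired analysis was possible because there was 1 library on each side, and no replicate could be left out. Depth, which was not analysed here, limits every statement on genes without an interval, and heights have no error.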
